A study of Homo sapiens with 32 samples.

Results

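The 24 nuclear serine tRNA genes described here were those with RefSeq symbols beginning TRS- and at least 30 reads at cytidine 12 (C12) in at least 1 of 32 libraries. They came from 28 serine tRNA genes and from 445 nuclear tRNA genes in all. Copies of identical sequence were merged, which left 17 sequences. These comprised 3 sequences with anticodon AGA, 4 with CGA, 4 with TGA and 6 with GCT. TRS-AGA2 stood for 6 gene copies and TRS-GCT4 for 3, and every other sequence had 1 gene.

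The other 4 serine tRNA genes were left out for what they held at base 12. TRS-ACT1 has T at base 12, where it carried 155 to 2059 reads, and TRS-AGA5 has T there with at most 42 reads. TRS-AGA3 had up to 2193 reads elsewhere but none listed at C12, and TRS-AGA7 had no base with 30 reads. TRS-AGA3 differs from TRS-AGA1 near its 3′ end by G56A, and 99.5% of its 8593 mock reads at that base were G, the base of TRS-AGA1.

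The libraries were made by ac4C-seq from Hep3B, a human hepatocellular carcinoma line. Reduction with NaCNBH3 makes N4-acetylcytidine (ac4C) read as T, so acetylation appears as a C>T share, and a mock fraction of the same RNA gives the background. The 16 RNA samples were 8 genotypes with 2 replicates each, and all cells had received 100 nM dTAGV1, a degrader of FKBP-tagged protein, for 24 h. Wildtype was the parental line. FKBP carried a degron tag at the C terminus of endogenous NAT10 and received no transgene. The other lines were the tagged line with a lentiviral insert, which was a YFP control in NAT10(-), wild-type NAT10 in NAT10-WT, the helicase mutants K290A and E389L, or the acetyltransferase (GNAT) mutants H537A and G641E. Per the study's methods, the NAT10 copies ran from an EF1A promoter, the cells were drug-selected populations and replicates were separate transductions. NAT10-WT is therefore a rescue with a transgene and not the endogenous gene.

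Each library held 1209889415 to 1732040929 base calls, at 400119 to 3797803 positions with 30 or more reads. The highest depth at any position lay between 20029 and 20049 in every library, so base calls may be cut at the most covered positions. All 9 hepatocyte marker genes had such positions in some libraries (6 of them in all 32), and none of 5 markers of blood, stroma or macrophages did. NAT10 itself had no exonic position with 30 reads in Wildtype, FKBP, NAT10(-) or the libraries labelled E389L. Of its 5227 exonic positions, G641E libraries had 2765 to 3028, K290A libraries 1441 to 3126, H537A libraries 615 to 2758 and NAT10-WT libraries 518 to 1082. The mutant codon was read in all G641E libraries (94.9 to 100% mismatch) and in 1 H537A library (97.3%). The labels K290A and E389L could not be checked this way, and values of E389L below are those of the libraries so labelled.

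Serine tRNAs bring serine to the ribosome and belong, with leucine tRNAs, to the class with a long variable arm. NAT10 acetylates C12 in the D arm of serine and leucine tRNAs together with the adaptor THUMPD1. Other marks that disturb reverse transcription sit in the same molecules. These are dimethylguanosine at G26, placed by TRMT1, and 3-methylcytidine (m3C) at C32, placed by METTL6 with seryl-tRNA synthetase. A34 of the AGA anticodon becomes inosine through ADAT2 and ADAT3 and is then read as G, and A58 in the T arm becomes 1-methyladenosine through TRMT6 and TRMT61A. Of 16 genes of this pathway, 10 had positions with 30 reads in any library and only RPPH1, the RNA of RNase P, in all. THUMPD1, METTL6, TRMT6, TRMT61A and ADAT2 were among the 6 with none, so their levels were not measurable at this depth.

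The sequences the results turn on are given from the hg38 genome in the gene's 5′ to 3′ direction. Capitals mark C12, bases 25 and 26, C32, the anticodon (34 to 36), base 50 in the variable arm and base 67, which is position 58 of the standard tRNA numbering.
TRS-AGA1: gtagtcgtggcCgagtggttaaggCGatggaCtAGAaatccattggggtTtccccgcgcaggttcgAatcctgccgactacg
TRS-AGA4: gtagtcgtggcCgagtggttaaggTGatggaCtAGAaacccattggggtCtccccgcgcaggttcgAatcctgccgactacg
TRS-TGA2: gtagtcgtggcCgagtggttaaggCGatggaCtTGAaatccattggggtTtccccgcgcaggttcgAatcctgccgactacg
TRS-TGA1: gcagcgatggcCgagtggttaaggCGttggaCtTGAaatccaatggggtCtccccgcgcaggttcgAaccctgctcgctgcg
TRS-CGA3: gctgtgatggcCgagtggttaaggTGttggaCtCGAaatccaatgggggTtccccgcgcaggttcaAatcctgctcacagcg
TRS-CGA4: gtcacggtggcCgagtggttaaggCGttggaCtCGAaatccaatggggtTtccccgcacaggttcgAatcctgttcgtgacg
TRS-GCT3: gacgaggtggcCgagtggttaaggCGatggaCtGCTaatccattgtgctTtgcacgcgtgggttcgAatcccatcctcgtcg
TRS-GCT4: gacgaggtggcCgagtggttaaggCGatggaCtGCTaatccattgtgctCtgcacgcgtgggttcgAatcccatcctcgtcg

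TRS-AGA2 is TRS-AGA1 with T50C, and TRS-TGA3 is TRS-TGA2 with T50C, counted from the first base. TRS-GCT4 is TRS-GCT3 with the same T50C. TRS-AGA4 and TRS-CGA3 are the only members with T at base 25 in place of C, and TRS-AGA4 differs from TRS-AGA2 by C25T and T39C. TRS-AGA1 and TRS-TGA2 differ by A34T alone. TRS-AGA1, TRS-AGA2, TRS-TGA2, TRS-TGA3 and TRS-TGA4 share bases 1 to 33, as do TRS-GCT1 to TRS-GCT5. The last 75 bases of TRS-GCT6 are those of TRS-GCT4 from base 8 on. Fragments that lie within these shared stretches cannot be told apart between genes. C12 sits in the triplet CCG in 18 of 21 serine and 18 of 20 leucine sequences and in none of 230 others, or in 13.3% of all 271 nuclear tRNA sequences.

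TRS-AGA4 lies at chr6:27553413-27553494 on the minus strand, with C12 at 27553483. TRS-CGA3 lies at chr6:27672450-27672531 on the minus strand and TRS-CGA4 at chr12:56190364-56190445 on the plus strand. TRS-TGA1 lies at chr10:67764503-67764584 and TRS-GCT3 at chr11:66348120-66348201, both on the plus strand. TRS-AGA1 lies at chr6:27541775-27541856 on the minus strand and TRS-TGA2 at chr6:27545689-27545770 on the plus strand. The first TRS-GCT4 copy, TRS-GCT4-1, lies at chr6:28597340-28597421 on the minus strand.

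C12 was read as T after NaCNBH3 in serine tRNAs of every anticodon, and sequences with the same anticodon differed. TRS-AGA4 was the highest. In Wildtype its C>T share was 13.8% (31 of 224 reads, 95% exact binomial interval 9.60 to 19.1) and 20.1% (46 of 229, 15.1 to 25.9). In NAT10-WT it was 26.4% (39 of 148, 19.5 to 34.2) and 41.0% (41 of 100, 31.3 to 51.3). The NAT10-WT replicates lay above both Wildtype replicates. These intervals cover counting error only.

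Of the remaining genotypes, G641E overlapped Wildtype at TRS-AGA4 C12 and the others lay below it. G641E gave 21.7% and 12.9%, and FKBP 13.04% and 10.0%. The single measured H537A library gave 7.61% and the single K290A library 5.72%, since the second replicate of each had fewer than 30 reads there. The libraries labelled E389L gave 4.84% and 3.77%, and NAT10(-) gave 2.42% (3 of 124) and 3.29% (5 of 152). Mock libraries held 13 T in 2543 reads at this base over all genotypes.

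TRS-AGA2 has the same anticodon and the most reads of its isoacceptor, but its C12 was hardly read as T. It gave 0 and 0.336% in Wildtype and 0.193% and 0.177% in NAT10-WT, and 0 in both replicates of NAT10(-). Summed over Wildtype and NAT10-WT, 10 of 5524 reads were T (0.181%, exact interval 0.0868 to 0.333), against 157 of 701 in TRS-AGA4 (22.4%, 19.4 to 25.7). TRS-AGA4 was higher than TRS-AGA2 in 14 of 14 NaCNBH3 libraries that measured both. The AGA isoacceptor as a whole, 2.43% ± 0.66 in Wildtype and 2.98% ± 0.73 in NAT10-WT (mean ± SD, n = 2), averaged a high sequence of few reads with a low sequence of many.

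The CGA sequences showed a similar spread. TRS-CGA3 gave 1.41% and 3.63% in Wildtype and 6.58% and 10.9% in NAT10-WT, so that all NAT10-WT values lay above Wildtype. It gave 3.68% and 6.27% in G641E, 3.56% and 3.72% in H537A, 1.51% and 0.907% in FKBP, and 1.61% and 1.35% in NAT10(-). TRS-CGA4, with the most reads of this anticodon, stayed between 0.66% and 2.88% in Wildtype and NAT10-WT. TRS-CGA3 was higher than TRS-CGA4 in 15 of 16 NaCNBH3 libraries and higher than TRS-CGA1 in 14 of 16. TRS-CGA1 gave 0.425% and 3.68% in Wildtype and 2.23% and 4.35% in NAT10-WT, so replicates of a genotype differed by more than the genotype means did.

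For the GCT sequences, TRS-GCT4 gave 4.16% and 9.62% in Wildtype, 4.62% and 6.24% in NAT10-WT, and 0.557% and 0.708% in NAT10(-). TRS-GCT3, one base away in the variable arm, gave 2.35% and 3.25%, 1.47% and 2.87%, and 0.4995% and 0.352% in the same genotypes. TRS-GCT4 was higher in 13 of 16 NaCNBH3 libraries. K290A gave 5.17% and 1.25% at TRS-GCT4 C12, the first within the Wildtype range and the second within that of H537A (1.48% and 0.889%). The copy TRS-GCT4-1 was not listed at C12 in the second K290A library. The value of that library leaves this copy out and is not matched to the other values. Within single copies, K290A gave 5.27% and 1.43% at TRS-GCT4-2 and 4.46% and 1.11% at TRS-GCT4-3.

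TRS-TGA1, the TGA sequence with the most reads, gave 2.74% and 8.56% in Wildtype and 2.93% and 5.79% in NAT10-WT. It gave 0.729% and 0.962% in NAT10(-), 0.572% and 1.42% in the libraries labelled E389L, and 0.891% and 1.06% in G641E. TRS-TGA3 was lower than TRS-TGA1 in 14 of 15 NaCNBH3 libraries. TRS-TGA2 and TRS-TGA4, in the top 5 by NAT10-WT mean, rested on few reads: TRS-TGA2 gave 0 of 54 and 4 of 40 reads in NAT10-WT, where 0 of 54 allows a share of up to 5.56%.

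**Figure D1:**
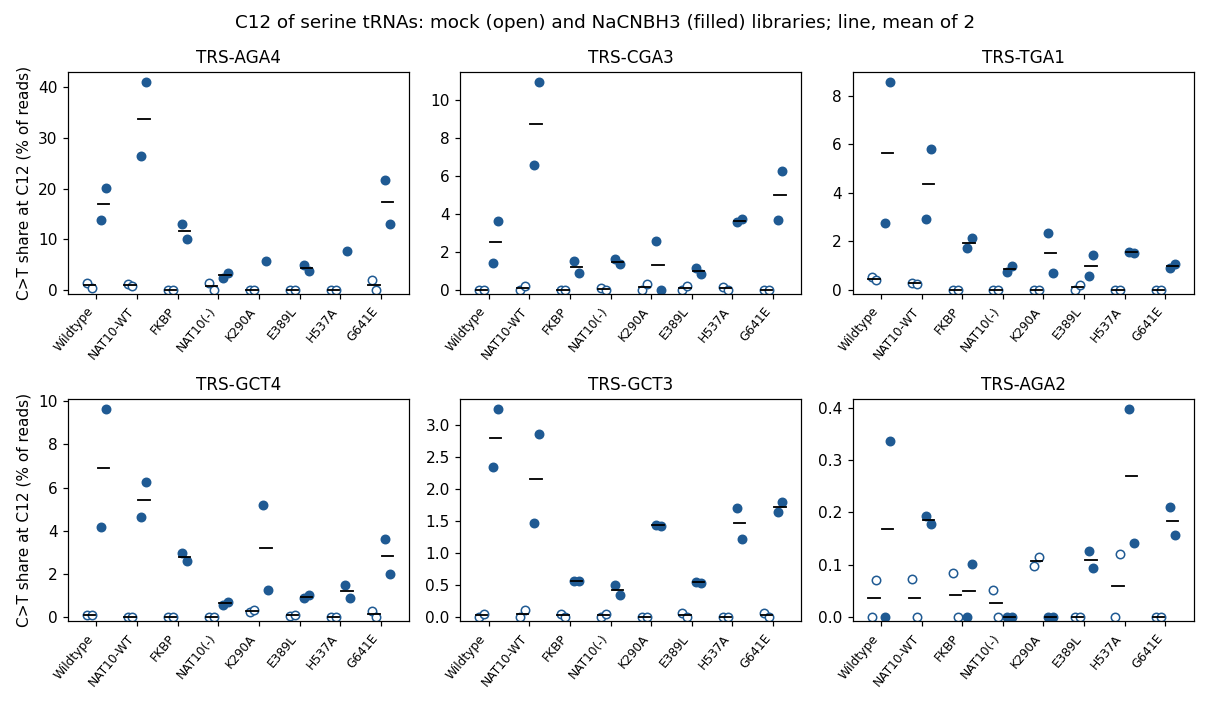
C>T share at C12 (percent of reads, vertical axis, a separate scale in each panel) for named serine tRNA sequences in the 8 genotypes, with open points for mock and filled points for NaCNBH3 libraries and lines at the mean of 2 replicates. TRS-AGA4 reaches 41.0% in NAT10-WT, mock points lie near 0, and NAT10(-) is low in each panel.

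Within genotypes the question was which sequences rose over mock. A rise was called when Fisher's exact test on reads passed an adjusted p of 0.05 in both replicates, over all C positions with 30 reads in both libraries and, in either, at least 5 T reads and a share above 1%. In Wildtype 6 of 6 tested members rose (11.3% of all positions tested), which were TRS-AGA4, TRS-CGA3, TRS-CGA4, TRS-GCT3, TRS-GCT4 and TRS-TGA1. In NAT10-WT 6 of 7 rose (13.4% of all), with TRS-CGA1 in place of TRS-CGA4. For TRS-AGA4 the adjusted p-values of Fisher's exact test were 2.20e-07 and 3.68e-16 in Wildtype and 6.21e-12 and 2.63e-16 in NAT10-WT. Mock C12 lay near 0, so a member entered these tests through its NaCNBH3 library. Members low in both fractions were left out, and the counts of rises describe members already high under NaCNBH3. No member fell in any genotype, an outcome that the low mock values all but fixed. Of all positions, 1.64% fell in NAT10-WT, 1.22% in Wildtype, 1.13% in E389L and 1.1% in G641E. In H537A 0.76% fell, in NAT10(-) 0.619%, in K290A 0.557% and in FKBP 0.535%.

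In FKBP 3 of 3 tested members rose (8.02% of all), TRS-AGA4, TRS-GCT4 and TRS-TGA1. In G641E 3 of 4 rose (9.16%), TRS-AGA4, TRS-CGA3 and TRS-GCT3. In H537A 1 of 1 rose (7.22%) and in NAT10(-) 1 of 1 (6.81%), in both cases TRS-CGA3. In K290A and E389L no member met these minimums in both replicates, so 0 of 0 were called, with 4.74% and 7.52% of all positions. In NAT10(-) TRS-CGA3 C12 held 24 T in 1624 NaCNBH3 reads (1.48%, exact interval 0.949 to 2.19), so a C>T signal was still measurable there. With the fractions of an RNA sample as a block, limma called 10 of 11 members in NAT10-WT (5.56% of all positions in that fit), 7 of 11 in Wildtype (3.22%), 5 of 10 in G641E (2.83%) and 3 of 11 in NAT10(-) (1.88%). It called 4 members each in FKBP (2.46%), K290A (2.77%), E389L (2.76%) and H537A (2.46%). Members entered the limma fit mainly through NaCNBH3 libraries as well, which favours a call of higher. With replicate 1 alone, Fisher's exact test called 6 members in K290A (9.8% of all positions), 5 in H537A (19%), 5 in G641E (14.8%) and 2 in E389L (12.7%), and with replicate 2 alone 10 in Wildtype (25.3%).

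In mock libraries C12 was read almost wholly as C. Summed over the members, the T share per library ran from 0 to 0.120%, over 2723 to 15953 reads. TRS-GCT4 held 14 T in 18544 mock reads, and the highest value of any member in any mock library was 2.25%, at TRS-TGA2. Summed over all genotypes, members held 79 T in 138142 mock reads and 1930 T in 122850 NaCNBH3 reads. The other mismatches, A and G, were 14 reads in mock and 19 in NaCNBH3.

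Across all 16 RNA samples, with the treatment fractions paired, limma called 10 of the 11 members tested at C12 higher under NaCNBH3, and 4.1% of all positions in that fit. TRS-GCT3 rose by 4.54 on the log2 scale of mismatch odds (SE 0.32, limma adjusted p = 1.60e-08), TRS-GCT4 by 4.50 and TRS-CGA3 by 4.44, each in 16 of 16 pairs. TRS-AGA4 rose by 4.17 (SE 0.35) in 14 of 14 pairs and TRS-TGA1 by 3.46 (SE 0.17) in 16 of 16. TRS-CGA1, TRS-CGA4, TRS-GCT2, TRS-GCT5 and TRS-TGA4 also passed. TRS-TGA3 did not, with a difference of 1.05 and an adjusted p of 0.056. A member entered this fit only with 5 mismatch reads and a share above 1% in at least 2 libraries. Mock C12 lay near 0, so members entered mainly through NaCNBH3 libraries, which all but fixed a call of higher. Members low in both fractions, such as TRS-AGA2, were left out. The fit gives 1 mean over all 8 genotypes.

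The next comparison asked which genotypes differed from NAT10-WT at C12 in NaCNBH3 libraries. On reads, by Fisher's exact test passed in each replicate, 7 of 7 tested members were lower in NAT10(-) (8.28% of all positions), and 6 of 7 in the libraries labelled E389L (10.1%). In NAT10(-) these were TRS-AGA4, TRS-CGA1, TRS-CGA3, TRS-GCT3, TRS-GCT4, TRS-GCT5 and TRS-TGA1. In the libraries labelled E389L they were TRS-AGA4, TRS-CGA1, TRS-CGA3, TRS-GCT3, TRS-GCT4 and TRS-TGA1. The comparisons share the NAT10-WT libraries. A member was tested only with at least 5 T reads and a share above 1% in either library. C12 shares in NAT10(-) were mostly under 1%, so members entered mainly through high NAT10-WT values, which favours a call of lower. Members low in both, such as TRS-AGA2, were not tested. Fewer were lower in the other genotypes: 2 of 7 in FKBP (7.83%), 2 of 6 in H537A (7.57%), 1 of 5 in K290A (6.98%), 1 of 7 in G641E (8.36%) and 2 of 8 in Wildtype (11.5%). The 2 in Wildtype were TRS-AGA4 and TRS-CGA3, the members with T at base 25. No member was higher than in NAT10-WT in any genotype. Of all positions, 7.1% were higher in Wildtype, 5.51% in FKBP, 2.57% in G641E, 2.37% in NAT10(-), 1.64% in H537A, 1.33% in K290A and 0.651% in E389L.

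Fisher's test counts reads of paired replicate numbers and takes no account of the spread between libraries, so limma was also run across libraries. In NAT10(-) 4 of 11 members fell (2.82% of all positions). TRS-AGA4 fell by 3.94 on the log2 scale of odds (SE 0.44, limma adjusted p = 0.0021), TRS-GCT4 by 3.13 (SE 0.60, adjusted p = 0.016), TRS-CGA3 by 2.59 (SE 0.59, adjusted p = 0.0499) and TRS-GCT3 by 2.28 (SE 0.37, adjusted p = 0.0046). The median member changed by -3.13, against -0.02 over all positions tested. A member entered this fit only with 5 T reads and a share above 1% in at least 2 NaCNBH3 libraries. C12 shares in NAT10(-) were mostly under 1%, so members entered mainly through other genotypes, which favours a fall. Without any single replicate of NAT10-WT or NAT10(-), 2 members were called. With the replicate number as a block, 5 were lower (3.63% of all). TRS-CGA3 was then no longer called (adjusted p = 0.065), and TRS-CGA4 (adjusted p = 0.046) and TRS-TGA4 (adjusted p = 0.023) were. With a minimum share of 0.1%, which adds positions to the fit, none was called in NAT10(-), FKBP or the libraries labelled E389L.

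In the libraries labelled E389L 3 of 11 fell (2.51% of all), TRS-AGA4 by 3.30 (limma adjusted p = 0.0051), TRS-CGA3 by 3.13 (adjusted p = 0.0158) and TRS-GCT3 by 1.87 (adjusted p = 0.0194). In FKBP 2 of 11 fell (2.82%), TRS-CGA3 by 2.88 and TRS-GCT3 by 1.77, both with an adjusted limma p of 0.0306. Without NAT10-WT replicate 2 the count was 1 for E389L and 0 for FKBP, without a replicate of FKBP 0, and without E389L replicates 1 and 2 it was 1 and 0. With the replicate number as a block TRS-TGA4 was called in E389L as well, which made 4 (3.55% of all), and FKBP kept its 2 (3.02%). No member passed in G641E (0 of 10, 2.09% of all lower), H537A (0 of 9, 2.17%), K290A (0 of 6, 2.06%) or Wildtype (0 of 11, 2.83%). None was higher, against 1.21% of all positions in Wildtype and 0.403% in FKBP. Before adjustment, limma gave p under 0.05 for 5 members in G641E, 4 in H537A, 1 in K290A and 2 in Wildtype. Their median differences were -0.92, -1.37, -1.26 and -0.19.

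The rise over mock itself was then compared with the rise in NAT10-WT. Of 69 member and genotype combinations none passed limma (smallest adjusted p 0.078, in NAT10(-)), and 23 had an unadjusted p under 0.05. The percentage of all positions called lower here was 0.0 in every genotype but FKBP, where it was 0.386. A difference in treatment effect between genotypes was therefore not shown at the library level for any member.

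At C32, where m3C is read as a mixture of bases, the GCT sequences as an isoacceptor stood highest. In the 16 mock libraries the mismatch share was 66.2% ± 7.8 for GCT, 30.4% ± 8.5 for CGA, 28.7% ± 7.5 for TGA and 11.2% ± 3.8 for AGA (mean ± SD over libraries, reads summed over members). GCT was higher than each other isoacceptor in all 16 libraries, with p = 3.05e-05 by a two-sided exact sign-flip permutation test, the smallest it can give (adjusted p = 3.66e-05 over 18 tests). CGA and TGA could not be separated (mean difference 1.61 percentage points, SD 5.86, exact permutation p = 0.288). The summed values weigh sequences by their reads. TRS-GCT3, at 84.4%, held 176147 mock reads at base 50, against 34075 in TRS-GCT4. The other GCT sequences held 26.98% to 49.2% at C32, below TRS-AGA1 (77.6%), TRS-TGA2 (65.0%) and TRS-CGA4 (59.1%). The order of the isoacceptors is therefore not an order of their single sequences.

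Sequences within an isoacceptor also differed at C32. TRS-GCT3 held 84.4% ± 4.5 (74.3 to 91.6) and TRS-GCT4 26.98% ± 7.59 (15.9 to 37.3), and TRS-GCT3 was higher in 16 of 16 mock libraries. TRS-AGA1 held 77.6% ± 6.7 and TRS-AGA2 9.12% ± 3.47, also with no overlap in 16 libraries. TRS-TGA2 held 65.0% ± 10.1 and TRS-TGA3 16.7% ± 7.3, higher in 16 of 16. These are the 3 pairs that differ by T50C, and in each the sequence with T at base 50 was the higher one. The pairs were chosen after the values were seen, so no test is given.

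The same sequence feature did not mark every member. Base 50 is T (uridine) in 6 sequences and C in 11. TRS-CGA4 (T) held 59.1% ± 12.8 and TRS-TGA4 (T) 43.8% ± 8.6, but TRS-CGA3 (T) held 6.52%. Among sequences with C, TRS-GCT1 held 44.8%, TRS-GCT2 43.9% and TRS-GCT6 49.2% ± 13.1, and TRS-AGA4 held 0.25% ± 0.39. C32 of TRS-GCT6 lies in the stretch it shares with TRS-GCT4, and whether its reads come from TRS-GCT4 was not tested. TRS-AGA4 and TRS-CGA3, low at C32, were the sequences with the highest C12 C>T share in NAT10-WT. Of the mismatches at TRS-GCT3 C32, T made up 51.1% of all reads and A 29.9%.

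The share of reads that run past the gene moved with this order. Reads 5 bases past the 3′ end cover bases that the mature tRNA lacks, and their share of the reads at the most covered base was measured after the values above were seen. The files list a base only from 30 reads on, so a library with no entry there holds 0 to 29 reads, and it was counted as 0. In mock the share was 6.80% ± 2.74 for TRS-GCT3 against 32.1% ± 10.995 for TRS-GCT4. TRS-AGA2 had 38.6% ± 10.9, while TRS-AGA1 was listed there in 0 of 16 libraries, which allows a mean of up to 6.24%. TRS-TGA3 had 57.8% ± 11.3, while TRS-TGA2 was listed in 4 of 16 and lay between 1.37% and 4.39% with the other libraries at 0 or at 29 reads. TRS-CGA3 had 77.2% ± 7.2, TRS-CGA1 72.8% and TRS-TGA1 60.4%, and TRS-AGA4, listed in 12 libraries, lay between 19.9% and 26.95%. TRS-CGA2 and TRS-GCT1 were listed in none of the 16, with means of up to 14.5% and 19.4%. Across the 17 sequences, which share libraries and in part reads, this share and the C32 mismatch had a Pearson correlation of -0.64 (Spearman -0.62) with such libraries at 0 and -0.71 (-0.72) with them at 29 reads. Over the 10 sequences listed in every mock library it was -0.84 (-0.76). In the same 3 settings it ran from -0.04 to 0.09 for G26 and from -0.13 to -0.06 for base 67. Its part in the C32 values was not tested.

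**Figure D2:**
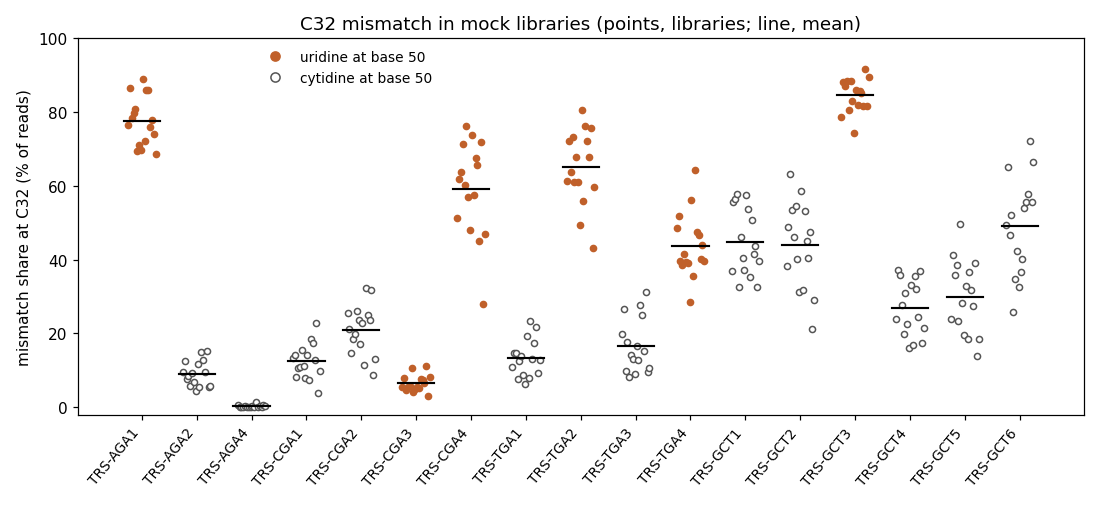
Mismatch share at C32 (percent of reads) in mock libraries for the 17 sequences, with 1 point per library, a line at the mean, and filled points where base 50 is uridine. TRS-GCT3 (84.4%) and TRS-AGA1 (77.6%) lie highest, TRS-AGA4 (0.25%) lies lowest, and TRS-CGA3 (6.52%) is the uridine sequence at the low end.

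G26 gave another order of the isoacceptors. In mock libraries the mismatch share was 91.3% ± 2.4 for CGA, 75.1% ± 5.5 for TGA, 74.7% ± 8.3 for GCT and 35.4% ± 5.7 for AGA. AGA was lower than each of the others in all 16 libraries and CGA higher than each (exact permutation p = 3.05e-05 each). TGA and GCT did not separate (mean difference 0.403 percentage points, SD 5.39, exact permutation p = 0.777). Within AGA the low value belonged to TRS-AGA2 (35.5% ± 5.9) and TRS-AGA4 (32.1% ± 6.6), while TRS-AGA1 held 77.3% ± 10.3 in the 6 libraries with enough reads. TRS-TGA2 was above TRS-TGA3 in 14 of 14 mock libraries (80.2% against 53.5%) and TRS-GCT3 above TRS-GCT4 in 16 of 16 (82.6% against 65.4%).

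At base 67, position 58 of the standard numbering, every member was read mostly as a base other than A. The isoacceptors held 93.6% ± 0.8 (CGA), 91.3% ± 1.9 (GCT), 88.2% ± 3.4 (TGA) and 82.9% ± 4.3 (AGA). All 6 pairs differed by the exact permutation test, with TGA above GCT in 1 of 16 libraries (p = 6.10e-05). Single sequences ran from 69.3% (TRS-GCT1) to 95.2% (TRS-CGA1). The wrong bases were mainly G and T, 65.98% and 27.67% of all reads at TRS-GCT3.

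Base 34 was read as G where the gene has A, as inosine is. The share of G was 81.0% at TRS-AGA4, 62.4% at TRS-AGA2 and 69.9% at TRS-AGA1. TRS-AGA1 also held 27.9% T, the base of TRS-TGA2, and TRS-TGA2 held 19.1% G where its gene has T. TRS-TGA3 and TRS-TGA4 held 17.7% and 6.55% G at the same base, and TRS-TGA1, whose sequence is further from the AGA genes, held 0 G. The first anticodon base of the CGA and GCT genes was read as in the genome, with mean mismatches of 0 to 1.30%. Whether reads of the A34T neighbours were placed on each other was not tested. Base 50 read as A in 10.6% and as G in 1.35% of TRS-GCT4 reads, and as T in 12.9% of TRS-TGA1 reads.

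Some genes carried the base of a neighbour at the place where they differ. TRS-CGA2 has A at base 66 and was read as G, the base of TRS-CGA1, in 94.5% of 3781 mock reads. TRS-GCT1 has C at base 74 and was read as T, the base of TRS-GCT4, in 73.4% of 1264 reads. By contrast, T made up 9 of 34075 reads at base 50 of TRS-GCT4. Whether values of TRS-CGA2 and TRS-GCT1 hold reads of those neighbours was not tested.

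**Figure D3:**
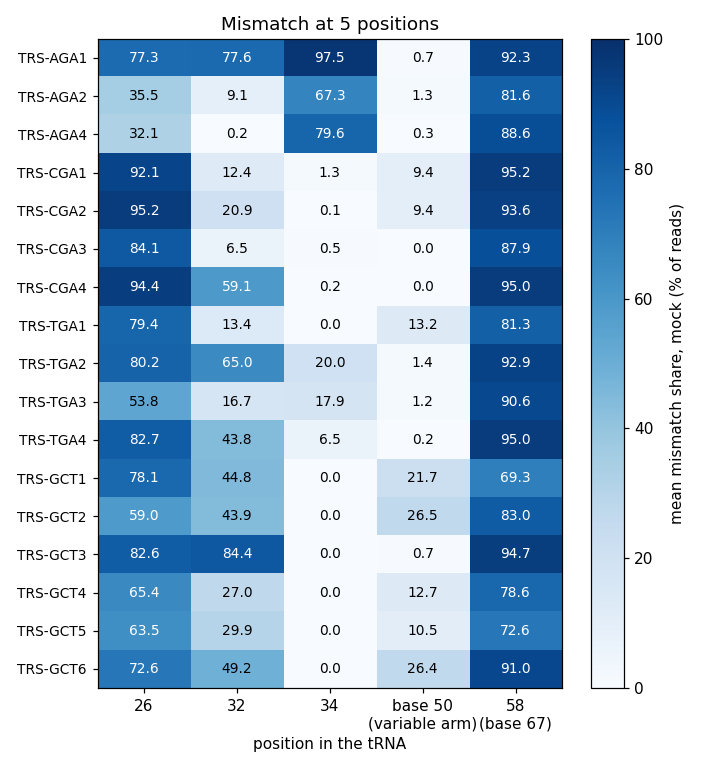
Mean mismatch share (colour, percent of reads) over mock libraries at positions 26, 32, 34, 50 and 58 of the 17 serine tRNA sequences, ordered by anticodon. Positions 26 and 58 are high in nearly all rows, position 34 is high in the AGA rows (67.3 to 97.5%), and position 32 varies from 0.25% to 84.4%.

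No member position passed limma between genotypes in mock libraries without a block. Against NAT10-WT, limma called 0 of 576 member, position and genotype combinations. The percentage of all positions called lower was 1.14 in Wildtype, 0.308 in FKBP, 0.356 in K290A, 0.0474 in G641E and 0.0 in the other 3. The percentage called higher was 1.18 in Wildtype, 0.222 in K290A, 0.0474 in G641E, 0.044 in FKBP and 0.0 in the other 3. Of the member combinations 43 had an unadjusted p under 0.05, and the smallest adjusted p was 0.067. With the replicate number as a block 3 were called higher, TRS-GCT3 base 56 in Wildtype (1.27% of all positions) and TRS-GCT1 base 50 in FKBP (0.132%) and K290A (0.356%). At C32 all 16 measured members were below NAT10-WT in Wildtype, by a median of -1.08 on the log2 scale of odds, where the median over all positions was -0.12. They were also all below in H537A, by a median of -0.89 (all positions -0.10). In G641E 13 of 16 were below (median -0.34, all positions 0.06), in E389L 12 (-0.14, all -0.03), in K290A 11 (-0.50, all 0.03), in FKBP 9 (-0.24, all 0.09) and in NAT10(-) 4 (0.12, all 0.02). At G26 all 14 measured members were below NAT10-WT in Wildtype (median -0.71, all positions -0.12). There 8 of 13 were below in H537A (median -0.13), and 7 of 14 in both K290A (0.08) and E389L (0.01). In both FKBP (0.39) and NAT10(-) (0.14) 3 of 14 were below, and in G641E 2 of 13 (0.55). The medians over all positions are those given for C32. Members share these libraries and in part reads, so the counts are not of independent values.

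The share of reads past the 3′ end differed between the same libraries. Summed over members in mock, with unlisted genes at 0, it was 43.4% and 32.1% in Wildtype and 30.8% and 40.8% in H537A, against 26.03% and 19.04% in NAT10-WT and 17.5% and 23.9% in NAT10(-). In NaCNBH3 libraries it was 48.3% and 24.1% in Wildtype and 32.96% and 19.8% in NAT10-WT. In these genotypes, E389L and G641E the replicate with the lower share had the higher C12 value at TRS-AGA4, and in FKBP and NAT10(-) it had the lower one, or 4 and 2 of the 6 genotypes with both replicates measured. Its part in these differences was not tested.

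NaCNBH3 changed few other positions. With fractions of the same RNA paired, limma called 5 of 85 higher and 4 lower (4.1% and 1.53% of all positions tested). At C32, TRS-GCT4 fell from 26.98% to 20.1% (lower in 15 of 16 pairs, limma adjusted p = 0.0074), TRS-GCT5 from 29.9% to 20.8% and TRS-GCT3 from 84.4% to 80.0%. At C32 of TRS-TGA4 the share rose from 43.8% to 53.8% (14 of 16 pairs, adjusted p = 0.0071). Base 50 of TRS-GCT4 fell (adjusted p = 0.0027). Base 50 of TRS-AGA4 and bases 67, 74 and 77 of TRS-AGA1 rose. At bases 74 and 77 the mismatches of TRS-AGA1 were T and G, the bases of TRS-TGA4 there. In replicate 2 alone, with 8 pairs, 1 position was called.

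Reads were uneven along the genes. In mock libraries TRS-GCT3 base 12 held 17.8% of the reads of its most covered base, base 26 held 18.7%, base 32 held 59.0% and base 50 held 99.8%. TRS-AGA2 went from 25.002% at base 12 to 61.5% at base 32 and 98.0% at base 50. TRS-AGA4 was flatter, with 70.2% at base 12 and 95.4% at base 32, and TRS-AGA1, listed at base 12 in 9 of 16 libraries, lay between 2.87% and 7.09% there with the others at 0 or at 29 reads. Fragment ends were not measured, so how many reads at C12 also extend past G26 and C32 is not known. Whether reads at C12 come from molecules with other marks than the rest was not tested.

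**Figure D4:**
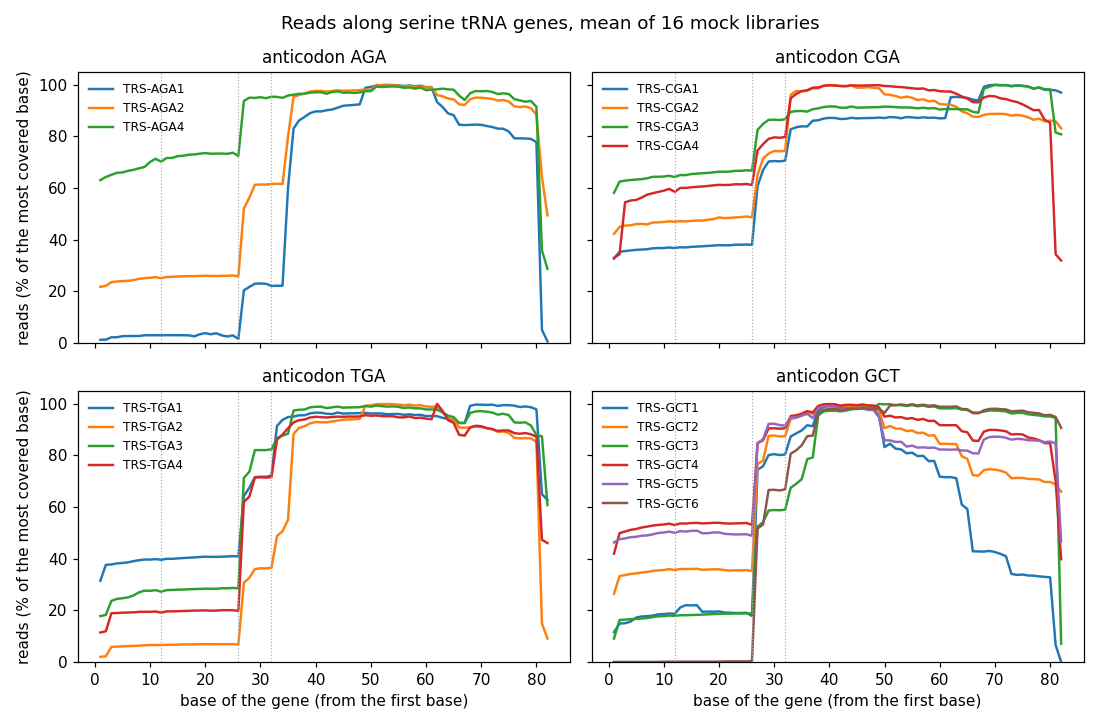
Reads at each base of the gene (horizontal axis, from the first base) as a percent of the most covered base (vertical axis), mean of 16 mock libraries, with 1 panel per anticodon and 1 line per sequence. Reads step up just after bases 26 and 32, as in TRS-GCT3 (18.7% at base 26, 59.0% at base 32), and TRS-AGA4 is the flattest AGA line.

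The isoacceptors took steady shares of the reads at base 12. In mock libraries GCT took 39.8% ± 4.1, CGA 31.4% ± 4.2, AGA 18.2% ± 2.2 and TGA 10.6% ± 1.0. TRS-GCT3 had a median of 1771.5 reads (548 to 4006), TRS-AGA2 1255 (543 to 2527), TRS-CGA4 1131 (391 to 2621) and TRS-TGA1 516. TRS-AGA4 had 137.5 (48 to 321). Because reads at a base can depend on the marks downstream of it, these are not molar amounts. In bulk RNA less RNA per cell and fewer cells cannot be told apart.

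The base calls of a library, to which depth is related here, may leave out reads at the most covered positions. For depth relative to the base calls of the library, the calls between genotypes depended on the block. Limma without it called 0 of 96 combinations against NAT10-WT in mock, with 2 at an unadjusted p under 0.05 and a smallest adjusted p of 0.081. With the replicate number as a block 6 were called. TRS-TGA2 was higher in Wildtype (9.76% of all tRNAs), and TRS-CGA1, TRS-CGA4, TRS-GCT2, TRS-GCT3 and TRS-TGA1 were lower in G641E (45.5% of all tRNAs). Without G641E replicate 1, 6 were called. Over all nuclear tRNAs, without the block, 5.49% were called higher in Wildtype, 13.3% lower in G641E and 1.9% lower in FKBP. Median log2 differences of the members were -0.73 in G641E (all tRNAs -0.90), -0.57 in H537A (-0.67), -0.41 in FKBP (-0.65), 0.40 in Wildtype (0.34) and 0.43 in NAT10(-) (0.37).

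Copies of identical sequence did not carry the same values. At C12 after NaCNBH3, TRS-GCT4-1 gave T in 22 of 200 reads and in 39 of 228 (17.1%) in Wildtype and 8.23% and 15.3% in NAT10-WT. TRS-GCT4-2 gave 3.12% and 8.42%, then 3.55% and 3.91%, and TRS-GCT4-3 gave 2.62% and 7.39%, then 3.57% and 4.15%. TRS-GCT4-1 was above each of the other copies in 15 of 15 libraries, by 3.21 ± 3.57 and 3.18 ± 3.67 percentage points (mean ± SD). The copies of TRS-AGA2 were all at or below 1.82% (1 of 55 reads).

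The modified positions also differed between copies. In mock libraries G26 mismatch was 86.9% ± 7.3 in TRS-GCT4-1, 59.8% ± 8.7 in TRS-GCT4-2 and 55.2% ± 11.5 in TRS-GCT4-3. In TRS-AGA2 it ran from 19.3% ± 5.1 (TRS-AGA2-1) to 73.1% ± 12.9 (TRS-AGA2-4), and at base 67 from 68.9% to 94.3%. Reads past the 3′ end were 39.5% of the highest base in TRS-GCT4-2 and 35.4% in TRS-GCT4-3. TRS-GCT4-1 was listed there in 10 of 16 mock libraries, and its share lay between 8.64% and 10.8% with the other 6 at 0 or at 29 reads. Among the TRS-AGA2 copies the share was 77.2% in TRS-AGA2-5, 52.5% in TRS-AGA2-1, 34.3% in TRS-AGA2-2, 16.5% in TRS-AGA2-3 and 7.71% in TRS-AGA2-4. TRS-AGA2-6 was listed in 0 of 16 libraries, which allows up to 3.73%. In this order the G26 mismatch was 28.0488%, 19.3%, 55.7%, 69.1%, 73.1% and 57.9%, so it did not follow the share at either end. Mature molecules of these copies are identical, so reads within the gene can be placed on any of them while reads past its end cannot. How reads that match several copies were placed is not given in the sources used here, and its part in these differences was not tested. Of the 24 genes, 20 had 30 or more reads 5 bases past the 3′ end in some mock library and 14 had them 5 bases before the 5′ end.

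**Figure D5:**
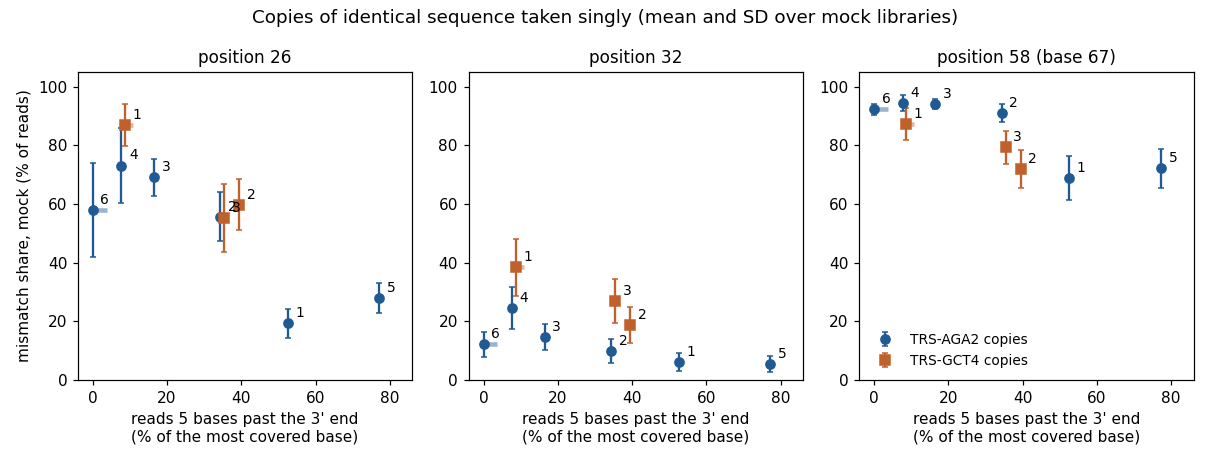
Mismatch share (percent of reads, mean and SD over mock libraries) at 3 positions for single copies of TRS-AGA2 and TRS-GCT4, against reads 5 bases past the 3′ end (percent of the most covered base). Pale horizontal bars run from unlisted libraries at 0 reads to 29 reads. TRS-AGA2-1 (52.5%, G26 19.3%) lies below TRS-AGA2-4 (7.71%, 73.1%), but TRS-AGA2-5 (77.2%) and TRS-AGA2-6 (at most 3.73%) break this order at G26.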

How the data were processed

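Mock and NaCNBH3 fractions of 16 RNA samples were sequenced after partial rRNA depletion, fragmentation and reverse transcription with 2-amino-dATP. The deposited files hold counts of A, C, G and T at each GRCh38 position with at least 30 reads, made by the authors with STAR 2.7.9a for alignment, SAMtools 1.6, cutadapt 4.2 and UMI-tools 1.1.5 (named in the submitters' processing notes), and duplicates were removed by molecular identifier. How multi-mapping reads were placed is not given in the sources used here.

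Here reads were counted on the gene's strand, and copies of identical tRNA sequence were summed, as were other positions with the same 31 bases around them. Shares are percentages of all reads at a base. Fisher's exact test (two-sided, computed with numba 0.67.0) required 30 reads, 5 mismatch reads and a share above 1%. limma 3.58.1 (R 4.3.3) used log2((mismatch + 0.5)/(other + 0.5)) over all positions with such a share in 2 libraries and 30 reads in 12. It gave a contrast only where both replicates of both genotypes had 30 reads. A base counted as a named position where its mean mock mismatch was at least 10%. Depth was tested as log2 of reads relative to the library's base calls with limma. All p-values were adjusted by Benjamini-Hochberg over the whole table, with a threshold of 0.05. Scripts were tested on simulated data. Sequences named were those with the most reads per anticodon and the 5 with the highest NAT10-WT C12 share. Members, lists and tests were chosen with earlier results of these data known. Alternatives changed the minimum share, depth, added count, copies, replicate block and replicates. Intervals are 95% exact binomial (scipy 1.17.1), and the limit of a count of 0 is 3 reads of the total.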

Additional observations from a re-analysis of the deposited data

Results flagged for a closer look

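At C12 of TRS-AGA2 the change under NaCNBH3 ran in opposite directions between genotypes. The C>T share was higher with NaCNBH3 in both replicates of 4 genotypes and lower in both replicates of K290A, by a mean of -0.1062 percentage points. The K290A NaCNBH3 libraries held 0 T reads of 2109 and 0 of 194. The difference was not tested, since the base lies under the 1% minimum share, and shares of this size rest on 0 to a few reads.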

How the results depend on the processing

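Of 211 counts of called members under alternatives, 164 were within 1.5 times the reported count and 47 were not. The single named differences were those called in the main setting, and the alternatives use the same libraries, so a reversal was unlikely from the start. No single named difference reversed in 115 alternatives, and 57 of them no longer passed the threshold. The cause was not tested, except that a lower minimum share raises the number of positions tested. For the rise over mock by genotype, limma with the RNA sample as a replicate block called 10 members in NAT10-WT, 3 in NAT10(-), 4 each in K290A, E389L and H537A, and 5 in G641E. A minimum share of 0.1% gave 3 in NAT10(-) and 1 in E389L. A single replicate gave 6 to 10 in Wildtype, 3 to 5 in G641E, 1 to 5 in H537A, 0 to 6 in K290A and 0 to 2 in E389L.

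For Fisher's exact test against NAT10-WT, a single replicate gave 1 to 5 lower members in G641E, 3 to 5 in H537A, 2 to 3 in K290A, 2 to 6 in FKBP and 3 to 4 in Wildtype, and a depth of 100 reads gave 0 in K290A. For limma against NAT10-WT, 5 added to each count gave 1 in FKBP and 2 in NAT10(-), a minimum share of 0.1% gave 0 in FKBP, NAT10(-) and E389L, and the single copy with most reads gave 2 in NAT10(-). Leaving out 1 replicate gave 0 to 3 in E389L, 2 in NAT10(-), and 0 to 1 in both FKBP and K290A, the lone library being taken to vary like the others.

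For the difference in treatment effect, 5 added to each count gave 1 call, and leaving out 1 replicate 0 to 1 (1 without K290A replicate 1). For other positions between genotypes, the replicate block gave 3 calls, a depth of 100 reads 1 and the NaCNBH3 libraries 1. For depth the replicate block gave 6 calls, and leaving out 1 replicate 0 to 6. For NaCNBH3 against mock at other positions, leaving out 1 replicate gave 1 to 8 calls. The replicate number as a block moved the limma C12 counts to 5 in NAT10(-) and 4 in E389L and changed no other of them. The study states that cell experiments ran their conditions side by side and their replicates on separate days, but the labels do not say that a number marks a day. Same-numbered samples of different genotypes correlated at -0.08 to 0.32 over C>T shares in NaCNBH3 libraries (above 0.1 in 18 of 28 genotype pairs), at 0.02 to 0.43 over mock mismatch (25 of 28) and at -0.34 to 0.82 over tRNA depth (20 of 28). Whether the number pairs the samples is not settled, since not every pair was above 0.1. Depth limits TRS-AGA4 (48 to 321 mock reads) and every sequence with fewer reads, and the shallow second K290A NaCNBH3 library leaves K290A with 6 members tested.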
